A study of Mus musculus with 18 samples.

Results

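Faecal microbiota from control donors was transplanted into ICR mice that also had a high fat diet and streptozotocin (STZ), and their spleens (HS_conFMT, 3 libraries) were set against spleens of mice with the diet and STZ alone (HS, 3 libraries). The comparison used 6 of the 18 libraries of the study and the 12969 of 19326 listed genes that had at least 1 FPKM (fragments scaled by transcript length and library total) in at least 3 of the 18 libraries. All mice were 10 weeks old. STZ is a toxin of the insulin-producing beta cells, and faecal microbiota transplantation (FMT) passes the gut community of a donor to a recipient. Where a transplant from another donor or an unexposed spleen was needed beside these libraries, values come from 3 libraries each of mice with diet, STZ and a transplant from donors given AOS at 10 mg/kg (HS_AOSFMT), of mice with diet, STZ and AOS at 10 mg/kg (HS_AOS), of mice given AOS at 10 mg/kg without diet or STZ (AOS), and of untreated controls (control). The labels do not spell out AOS. Nor do they say whether the 3 libraries of a group are 3 animals, so a p-value here reflects only how far these libraries vary, which may be technical.

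The spleen filters blood and houses B and T cells, and its red pulp macrophages recycle old red cells. Like most organs it keeps circadian time: CLOCK and BMAL1 (the product of Arntl) switch on genes with an E-box, among them Per1 to Per3, the repressors Nr1d1 and Nr1d2 and the PAR bZIP factors Dbp, Tef and Hlf, which in turn bind D-box sites. Secretory cells, in the spleen mostly plasma cells, rely on chaperones of the endoplasmic reticulum (ER) that are induced together when unfolded proteins accumulate.

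Spleen identity was as labelled: all 17 B cell and all 22 red pulp macrophage markers passed the expression filter. Cd79a, a B cell receptor subunit, lay between 731 and 1123 FPKM in HS_conFMT and between 658 and 817 FPKM in HS libraries, and Spic, the factor that specifies red pulp macrophages, between 42.1 and 48.2 FPKM and between 36.3 and 55.2 FPKM in the same order. Of the 14 pancreatic islet genes, 0 passed the filter. Summed FPKM ran from 673534 to 802269 in HS_conFMT and from 727755 to 770999 in HS libraries; the file holds no counts, so depth is unknown and no counting intervals are given. HS_conFMT 2 stood apart from the other HS_conFMT libraries on the first principal component (25.3 against -2.92 and -7.52). It also had the lowest share of haemoglobin transcripts of the 6 libraries (14.7% against 35.5% and 25.7% in HS_conFMT 1 and 3, and 26.8% to 29.1% in HS). HS 1 stood apart within its own group (-32.7 against -8.04 and -14.1) and carried the most pancreatic acinar transcript (3.30% of its total).

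In HS_conFMT spleens 1 gene passed the threshold against HS, the clock output gene Dbp, and it rose. The test was limma on log2(FPKM + 1) over all 18 libraries with Benjamini-Hochberg adjustment over the 12969 genes and a threshold of 0.05, and fold changes on this scale understate the change of low genes. That 1 call is 0.00771% of the genes tested, and 0 genes were called lower. At an unadjusted p under 0.05, 585 genes were higher (4.51%) and 234 lower (1.8%). The libraries of the groups did not overlap for 1009 genes that were higher (7.78%) and 388 that were lower (2.99%). Over all genes the median log2 change was 0.03, with 7695 above zero. Leaving out any 1 of the 6 libraries ended the Dbp call, with limma adjusted p between 0.0576 and 0.213, and no other gene was called in those fits. With HS 1 and HS_conFMT 2 both set aside, the only call was the predicted gene Gm6851 (log2 change 1.35, limma adjusted p = 0.0175), and Dbp had an adjusted p of 0.143.

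**Figure D1:**
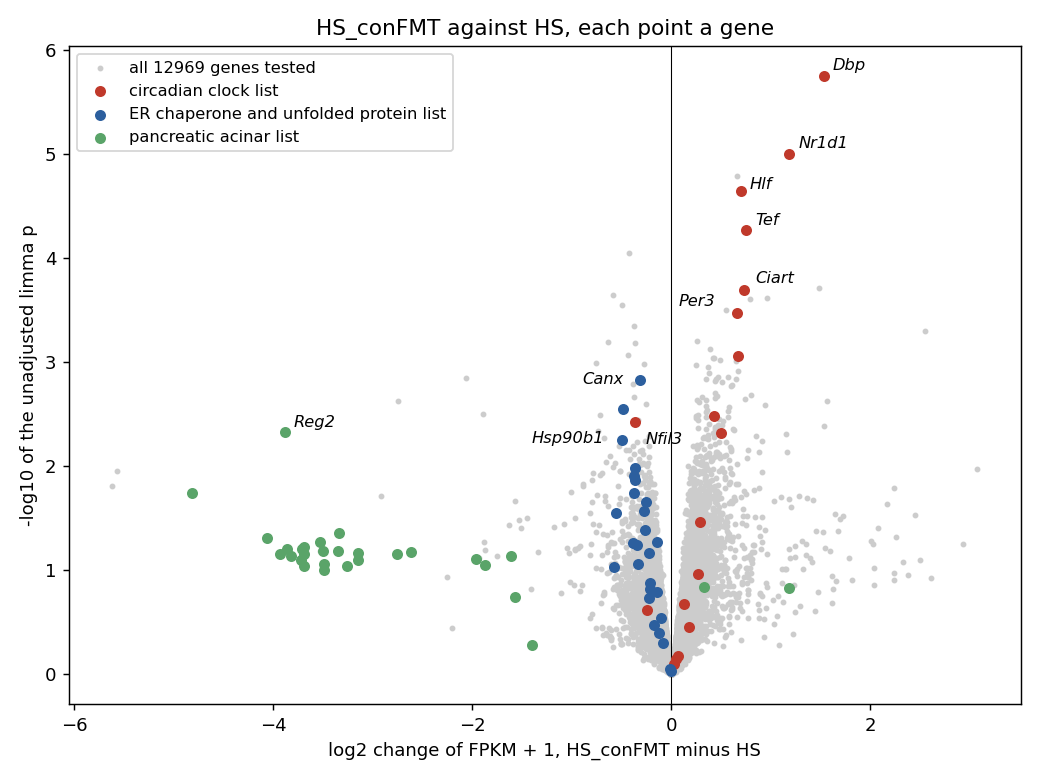
Each point is a gene, placed by its log2 change of FPKM + 1 in HS_conFMT minus HS (horizontal axis) and by the negative log10 of its unadjusted limma p (vertical axis). Clock genes (red) lead the right arm with Dbp at 1.53, ER chaperone genes (blue) all lie left of zero, and pancreatic acinar transcripts (green) spread to the far left at modest p.

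Dbp encodes a PAR bZIP activator whose transcript is among the most strongly cycling in mouse tissues. The gene lies at chr7:45705088-45710203 (mm10, GENCODE M21, plus strand). It had 15.5, 24.4 and 15.8 FPKM in HS_conFMT libraries, against 6.16, 5.32 and 5.41 FPKM in HS libraries. The lowest HS_conFMT library was above the highest HS library by more than the range within HS. The log2 change was 1.53 (SE 0.21, 95% interval 1.10 to 1.97, limma adjusted p = 0.0232). Means ± SD (n = 3 each) were 18.6 ± 5.09 FPKM in HS_conFMT, 8.73 ± 1.52 in HS_AOSFMT, 13.7 ± 3.02 in HS_AOS, 5.63 ± 0.461 in HS, 8.22 ± 1.82 in AOS and 6.39 ± 1.30 in control.

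Nr1d1, the haem-binding repressor REV-ERB alpha that silences Arntl, came next by p and missed the threshold. Its libraries had 9.38, 10.6 and 8.51 FPKM in HS_conFMT and 3.94, 3.44 and 3.46 FPKM in HS. They did not overlap, with a log2 change of 1.18 (SE 0.18, limma adjusted p = 0.0649). Hlf, a PAR bZIP factor of low expression here, had 1.35, 1.54 and 1.21 FPKM in HS_conFMT and 0.48, 0.37 and 0.52 FPKM in HS (log2 change 0.70, limma adjusted p = 0.0739). Tef, the remaining PAR bZIP factor, had 16.0, 19.2 and 16.4 FPKM in HS_conFMT and 10.0, 9.85 and 9.40 FPKM in HS (log2 change 0.76, limma adjusted p = 0.141). All 3 PAR bZIP genes and Nr1d1 therefore had every HS_conFMT library above every HS library, Dbp alone passing the threshold. Over all genes, 7.78% were higher without overlap. The genes named here were picked by small p in this comparison, so their separation is no further support.

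Among the negative-limb genes, Per3 had 2.85, 4.61 and 3.98 FPKM in HS_conFMT and 2.16, 1.64 and 2.29 FPKM in HS (log2 change 0.66). Ciart, a repressor of CLOCK and BMAL1, had 2.62, 3.80 and 3.38 FPKM in HS_conFMT and 1.32, 2.35 and 1.14 FPKM in HS (log2 change 0.73). Nr1d2, the second REV-ERB, averaged 12.9 ± 2.29 FPKM in HS_conFMT and 7.68 ± 0.448 FPKM in HS (SD, n = 3 each, log2 change 0.67). These 3, likewise picked by small p, also did not overlap between the groups, and their limma adjusted p ran from 0.295 to 0.480. Per1 and Per2 had log2 changes of 0.50 and 0.43.

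Nfil3, which represses at the D-box that the PAR bZIP factors activate, went the other way. It had 2.11, 3.17 and 2.50 FPKM in HS_conFMT and 3.73, 3.42 and 3.64 FPKM in HS, without overlap (log2 change -0.37, limma adjusted p = 0.640). Arntl, which cycles roughly opposite to Dbp and Nr1d1, had 5.95, 8.29 and 7.02 FPKM in HS_conFMT and 7, 9.70 and 8.97 FPKM in HS. Its groups overlapped (log2 change -0.24, limma adjusted p = 0.817). Clock and Cry1 had log2 changes of 0.03 and 0.05. The labels give no hour at which the spleens were taken, so group and hour of collection cannot be told apart for these genes.

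Over the whole clock list, 18 of 19 genes were tested (Npas2 did not pass the filter), 1 was called higher and 0 lower. Of the 18, 16 had a change above zero and the median was 0.36, beside 0.03 over all genes. At an unadjusted p under 0.05, 10 were higher (55.6%, beside 4.51% of all genes) and 1 was lower, Nfil3. With 1 library left out the median stayed between 0.30 and 0.43, and it was 0.28 with HS 1 and HS_conFMT 2 both set aside. The summed FPKM of the list was 119 to 159 in HS_conFMT and 93.2 to 96.8 in HS. It was 131 to 141 in HS_AOSFMT and 102 to 128 in HS_AOS, so a sum above HS was not particular to HS_conFMT. Against HS_AOSFMT the list median was 0.04, with 10 of the 18 genes above zero.

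**Figure D2:**
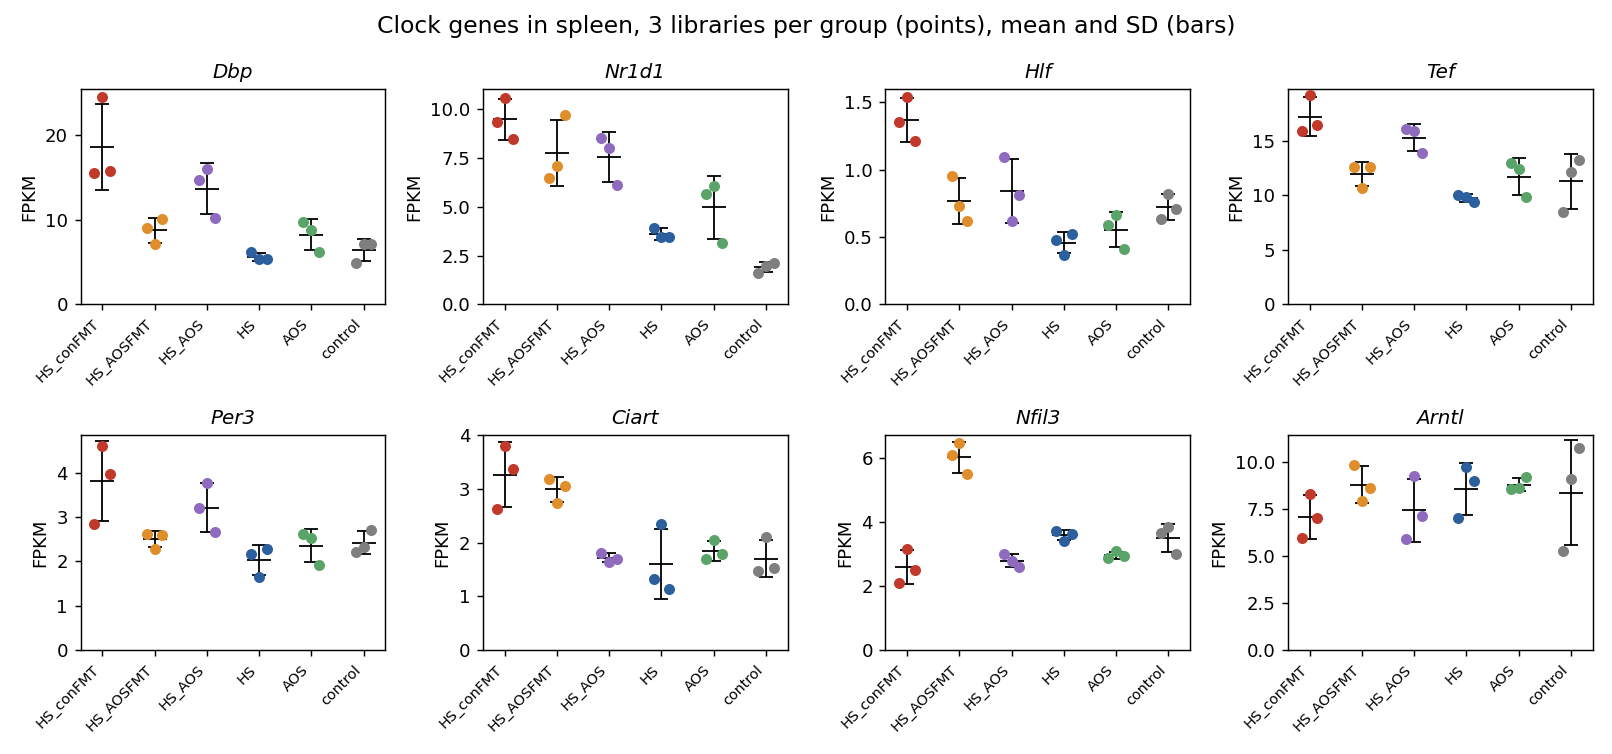
FPKM of 8 clock genes (vertical axes from 0) in the 3 libraries of each of 6 groups, with means and SD as bars. HS_conFMT has the highest mean for Dbp (18.6), Nr1d1 (9.50), Hlf (1.37), Tef (17.2), Per3 (3.81) and Ciart (3.27), and the lowest for Nfil3 (2.59) and Arntl (7.09).

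The promoters of clock genes that did not overlap between the groups are shown where the letters of an E-box or a D-box stand in the 250 bases before the RefSeq start (GRCm38.p6), with those letters in capitals. Per3 (chr4:151044666-151044915, minus strand) holds the D-box letters TTATGTAA at 2 places. Ciart (chr3:95882229-95882478, minus strand) holds the E-box letters CACGTG at 3 places and Tef (chr15:81802423-81802672, plus strand) at 1.
Per3: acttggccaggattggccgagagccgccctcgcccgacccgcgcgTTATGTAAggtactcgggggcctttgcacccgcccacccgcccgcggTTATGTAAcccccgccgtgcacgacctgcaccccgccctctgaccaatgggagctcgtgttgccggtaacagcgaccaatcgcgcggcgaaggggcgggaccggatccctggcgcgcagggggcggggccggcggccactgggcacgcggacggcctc
Ciart: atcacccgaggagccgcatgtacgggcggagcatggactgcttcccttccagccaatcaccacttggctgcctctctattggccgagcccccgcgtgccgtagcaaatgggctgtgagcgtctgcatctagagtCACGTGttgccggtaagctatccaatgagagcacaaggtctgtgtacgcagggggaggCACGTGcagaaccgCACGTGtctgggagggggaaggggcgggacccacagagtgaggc
Tef: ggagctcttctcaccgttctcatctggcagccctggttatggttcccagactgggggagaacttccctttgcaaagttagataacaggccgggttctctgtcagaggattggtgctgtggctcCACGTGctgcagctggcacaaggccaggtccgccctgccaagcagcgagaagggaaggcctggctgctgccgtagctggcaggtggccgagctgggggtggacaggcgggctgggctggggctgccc
Both strands were searched, and no match overlapped a match of another motif in the promoters shown. Of 15 tested clock genes in the RefSeq promoter table, 5 held CACGTG (33.3%, beside 9.62% of the 10171 tested genes in the table) and 1 held TTATGTAA (6.67%, beside 0.619%). The windows of Dbp, Nr1d1, Nr1d2 and Hlf held neither. A match is a run of letters, and binding was not measured.

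Outside the clock, the genes with the smallest p that were higher in HS_conFMT included Sh2d6, Fmo2, Gdf10 and Tctn1, and 0 of them passed the threshold. Sh2d6, an SH2 adaptor expressed in tuft cells, had 1.03, 1.07 and 1.03 FPKM in HS_conFMT and 0.17, 0.44 and 0.29 FPKM in HS (log2 change 0.66, limma adjusted p = 0.0703). Fmo2, a flavin monooxygenase, had 9.71, 10.0 and 6.03 FPKM in HS_conFMT and 2.73, 3.23 and 1.38 FPKM in HS (log2 change 1.49, limma adjusted p = 0.295). The groups did not overlap for either, beside 7.78% of all genes that were higher without overlap. Both were picked by small p in this comparison, so the separation is no further support. For Sh2d6 every HS_conFMT library lay just above the filter level of 1 FPKM, and every HS library lay below it. Gdf10, a TGF-beta family ligand, and Tctn1, a protein of the ciliary transition zone, had log2 changes of 0.79 and 0.55. Further log2 changes were 0.39 for the mitochondrial protein gene Nipsnap2, 0.26 for Ccdc82 and 0.42 for Zfp488, a zinc finger gene. Mup19, a major urinary protein normally made in liver, had 3.41, 9.63 and 17.7 FPKM in HS_conFMT and 0.85, 0.29 and 0.85 FPKM in HS; it belongs to a family of near-identical copies, so its reads may have been split between them. Of 12 liver markers 11 were above zero (median 1.53) and 0 were called. At an unadjusted p under 0.05, 1 was higher (8.33%, beside 4.51% of all genes). Their summed FPKM was 225 to 333 in HS_conFMT and 92.7 to 135 in HS. It was 83.9 to 490 in HS_AOSFMT and 66.3 to 377 in control, so such sums were not particular to HS_conFMT.

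The genes of smallest p with lower values in HS_conFMT again held 0 calls. Gaa, the lysosomal acid alpha-glucosidase that degrades glycogen, had 9.97, 9.91 and 9.36 FPKM in HS_conFMT and 13.3, 13.2 and 13.7 FPKM in HS (log2 change -0.42, limma adjusted p = 0.193). Cars and Mars, the cysteinyl and methionyl transfer RNA synthetases, had log2 changes of -0.38 and -0.27. Creb3l1, an ER-anchored transcription factor, had 2.77, 2.80 and 2.78 FPKM in HS_conFMT and 3.48, 4.06 and 4.21 FPKM in HS (log2 change -0.37). In these 4 genes no HS_conFMT library reached the lowest HS library. They were picked by small p in this comparison, so the separation is no further support. Over all genes, 2.99% were lower without overlap. Log2 changes of the others were -0.58 for Swt1, -0.50 for the DNA repair gene Fanca, -0.64 for Ccnb1ip1, -0.43 for Prob1, -0.75 for Spon2, -0.38 for Chid1 and -0.26 for the mitochondrial import chaperone Timm10.

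Plin2, which coats lipid droplets and is a target of PPAR, had 30.9, 31.2 and 30.4 FPKM in HS_conFMT and 41.9, 39.1 and 39.3 FPKM in HS (log2 change -0.37, SE 0.09, limma adjusted p = 0.455). The gene lies at chr4:86648386-86670060 (mm10, minus strand). It had risen in HS, with 40.1 ± 1.55 FPKM against 23.6 ± 1.70 FPKM in control (SD, n = 3 each, log2 change 0.74, limma adjusted p = 0.00205), 1 of 2 genes called there (0.0154% of those tested), the other being Kap. All 3 HS_conFMT libraries lay below every HS and above every control library. These comparisons share the HS libraries, so a high HS value enters both with opposite sign. HS_conFMT and control differed by a log2 change of 0.37 (limma adjusted p = 0.187). Angptl4, a secreted lipase inhibitor and PPAR target, had 11.4, 11.9 and 8.88 FPKM in HS_conFMT and 20.7, 16.3 and 12.5 FPKM in HS (log2 change -0.56). Over the PPAR and fatty acid oxidation list, 24 of 27 genes were tested, 0 were called, 11 were above zero and the median was -0.03, beside 0.03 over all genes. With 1 library left out that median ran from -0.07 to 0.08.

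ER chaperones and unfolded protein genes had lower values in HS_conFMT than in HS throughout the list, though 0 of 27 were called. All 27 were tested, 0 had a change above zero, and the median was -0.27 beside 0.03 over all genes. At an unadjusted p under 0.05, 11 were lower (40.7%, beside 1.8% of all genes) and 0 were higher. Hsp90b1, the ER form of HSP90, had 219, 338 and 287 FPKM in HS_conFMT and 400, 389 and 387 FPKM in HS (log2 change -0.50, limma adjusted p = 0.702). Hspa5, the chaperone BiP that holds the stress sensors inactive, had 183, 255 and 234 FPKM in HS_conFMT and 255, 295 and 307 FPKM in HS (log2 change -0.36). For both, all HS_conFMT libraries lay below all HS libraries, by a narrow margin for Hspa5. Over the list, 9 of 27 genes were lower without overlap, beside 2.99% of all genes. Members shown were picked partly by small p in this comparison, so their separation is no further support.

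Pdia6, a protein disulphide isomerase, had 61.1, 88.2 and 76.2 FPKM in HS_conFMT and 108, 99.3 and 106 FPKM in HS (log2 change -0.48, limma adjusted p = 0.599). Canx, the lectin chaperone calnexin, had 61.2, 73.8 and 71.2 FPKM in HS_conFMT and 80.4, 82.5 and 93.6 FPKM in HS (log2 change -0.31, limma adjusted p = 0.492). Calr, the soluble lectin chaperone, and Xbp1, the transcription factor spliced by IRE1, each had a log2 change of -0.37. HS_conFMT 1 was the lowest library for each of the 4 chaperones given by library. Without it the list had 3 members lower at an unadjusted p under 0.05 and a median of -0.13, and without HS_conFMT 2 it had 19 and a median of -0.37. Without HS 1 there were 7, and 15 with HS 1 and HS_conFMT 2 both set aside.

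Plasma cell markers were lower with the chaperones, but the lists are not separate. The member with the lowest log2 change (-0.58) stands in both. Of 17 markers 12 were tested, 2 were above zero, 0 were called and the median was -0.33. Their summed FPKM was 1073 to 1431 in HS_conFMT and 1203 to 1982 in HS, the top value being that of HS 1. Mzb1, a plasma and marginal zone B cell chaperone, had 173, 273 and 208 FPKM in HS_conFMT and 425, 291 and 215 FPKM in HS. Without HS 1 the median of the plasma cell markers was -0.12, and that of the ER list -0.23. The part of plasma cell number in the ER values was not tested, and in bulk tissue fewer cells of a type and less RNA per cell cannot be told apart.

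**Figure D3:**
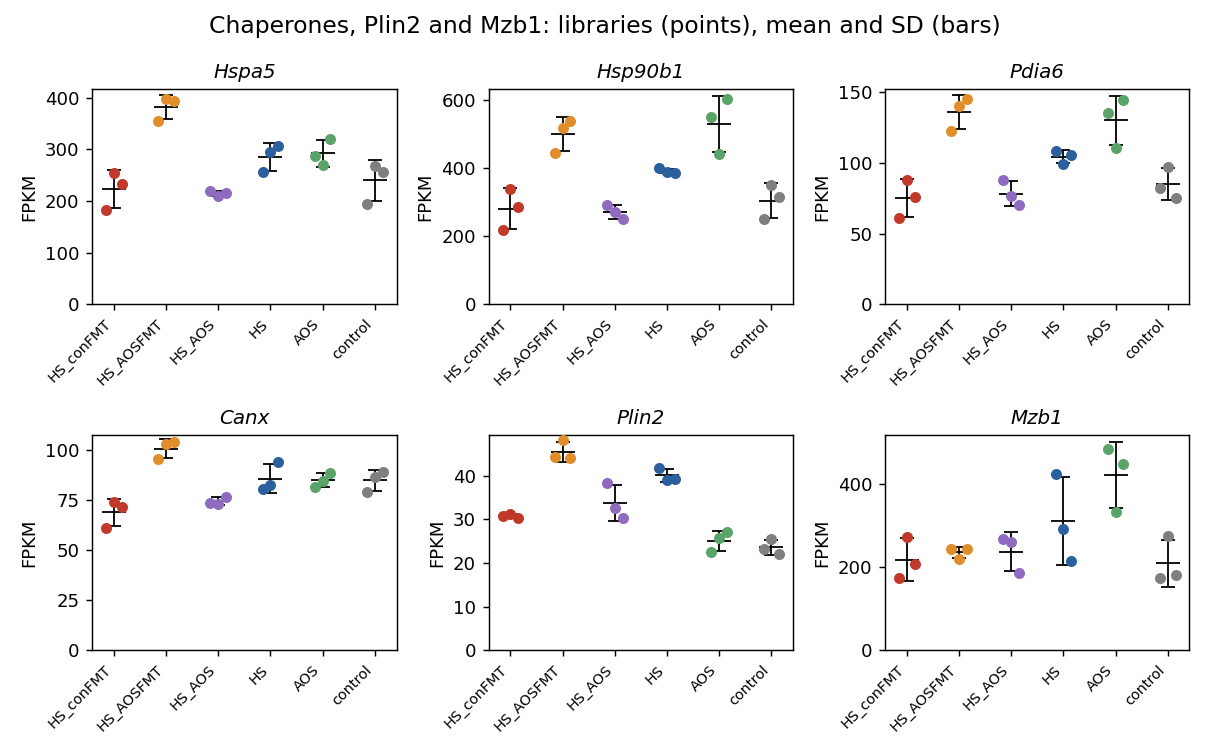
FPKM of 4 ER chaperones, Plin2 and the plasma cell marker Mzb1 (vertical axes from 0) in the 3 libraries of each group, with means and SD as bars. HS_conFMT means are lower than HS means in each panel, for example 281.4 against 391.8 for Hsp90b1, and HS_AOSFMT is the higher of the transplant groups for the chaperones and Plin2.

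Promoters of the 4 chaperones given by library are shown because each holds the full ER stress response element, read by ATF6 together with NF-Y, in the 250 bases before the RefSeq start (GRCm38.p6). The letters searched on both strands were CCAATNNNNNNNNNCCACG, and capitals mark them. The windows are chr2:34771840-34772089 (plus strand) for Hspa5, chr10:86705445-86705694 (minus strand) for Hsp90b1, chr12:17266339-17266588 (plus strand) for Pdia6 and chr11:50325674-50325923 (minus strand) for Canx.
Hspa5: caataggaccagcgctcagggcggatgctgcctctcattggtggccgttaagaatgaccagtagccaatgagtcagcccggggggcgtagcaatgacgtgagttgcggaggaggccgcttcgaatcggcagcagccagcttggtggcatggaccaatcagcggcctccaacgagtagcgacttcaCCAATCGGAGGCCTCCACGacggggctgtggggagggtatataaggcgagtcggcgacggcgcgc
Hsp90b1: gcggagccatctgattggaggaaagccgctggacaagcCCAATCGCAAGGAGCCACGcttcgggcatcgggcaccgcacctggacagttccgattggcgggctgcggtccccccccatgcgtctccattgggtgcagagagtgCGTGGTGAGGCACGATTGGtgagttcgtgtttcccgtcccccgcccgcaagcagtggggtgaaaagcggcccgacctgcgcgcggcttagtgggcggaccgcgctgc
Pdia6: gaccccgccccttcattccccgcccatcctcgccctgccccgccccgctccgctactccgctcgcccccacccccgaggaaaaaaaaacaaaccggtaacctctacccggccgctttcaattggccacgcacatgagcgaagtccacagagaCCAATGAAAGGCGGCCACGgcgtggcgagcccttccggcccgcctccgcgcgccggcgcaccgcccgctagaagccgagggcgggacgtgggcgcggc
Canx: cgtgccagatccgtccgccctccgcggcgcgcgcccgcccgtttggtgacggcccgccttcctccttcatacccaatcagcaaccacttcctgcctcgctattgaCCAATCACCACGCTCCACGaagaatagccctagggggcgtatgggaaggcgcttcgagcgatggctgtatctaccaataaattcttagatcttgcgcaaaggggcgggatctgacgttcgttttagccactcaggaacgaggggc
Hsp90b1 holds 2 matches, 1 on each strand, and the others 1 each. Of 22 tested ER list genes in the promoter table, 9 hold the element (40.9%), beside 17 of 10171 tested genes (0.167%). This share describes the promoters of the list and not a difference between the groups. Here too a match is a run of letters, and binding by ATF6 or NF-Y was not measured.

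Genes known to respond to glucocorticoids had mostly higher values in HS_conFMT. Of 18 listed genes 17 were tested, 14 were above zero, 0 were called and the median was 0.24. At an unadjusted p under 0.05, 7 were higher (41.2%, beside 4.51% of all genes) and 1 was lower (5.88%, beside 1.8%). Ddit4, an inhibitor of mTORC1, had 48.0, 68.0 and 65.8 FPKM in HS_conFMT and 34.4, 42.4 and 30.7 FPKM in HS (log2 change 0.74, limma adjusted p = 0.557), without overlap. Tsc22d3, the leucine zipper protein GILZ, had 104, 137 and 144 FPKM in HS_conFMT and 60.7, 107 and 76.6 FPKM in HS, with overlap. Per1 belongs to both this list and the clock list. Fkbp5, a co-chaperone of the glucocorticoid receptor, averaged 12.5 ± 2.16 FPKM in HS_conFMT and 10.4 ± 0.599 FPKM in HS (SD, n = 3 each), and its libraries overlapped.

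Within the integrated stress response list, 19 genes were tested, 14 were below zero, 0 were called and the median was -0.20. At an unadjusted p under 0.05, 5 were lower (26.3%, beside 1.8% of all genes) and 2 higher (10.5%, beside 4.51%). Ddit4, given above, is also on this list and had its highest log2 change (0.74). Asns, asparagine synthetase, had 28.1, 18.9 and 26.7 FPKM in HS_conFMT and 48.2, 33.5 and 42.5 FPKM in HS (log2 change -0.73, limma adjusted p = 0.679), without overlap. Slc7a5, a large neutral amino acid transporter, had a log2 change of -0.65. Trib3, a stress-induced pseudokinase, had a log2 change of 0.56, and Atf4 and Ddit3, the list's central factors, had 0.04 and -0.04.

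Of 24 heat shock genes, 0 were called, 3 were above zero and the median was -0.20. Hspa8, the constitutive cytosolic HSP70, had 1190, 1467 and 1481 FPKM in HS_conFMT and 1035, 1917 and 2186 FPKM in HS. HS 1 was thus the lowest library and HS 2 and 3 the highest, and the list's median was -0.57 without HS 1 and -0.03 without HS 3. The cold-inducible RNA-binding genes had values in the other direction. Rbm3 had 402, 367 and 350 FPKM in HS_conFMT and 329, 210 and 226 FPKM in HS (log2 change 0.57, limma adjusted p = 0.610), without overlap. Cirbp had 30.6, 36.6 and 35.4 FPKM in HS_conFMT and 33.7, 22.2 and 22.2 FPKM in HS, with overlap.

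Immune marker lists gave 0 calls. T cell markers were above zero in 22 of 24 (median 0.16) and B cell markers in 15 of 17 (median 0.13). Il7r, the survival receptor of resting T cells, had 19.6, 27.2 and 25.1 FPKM in HS_conFMT and 13.1, 20.7 and 15.9 FPKM in HS (log2 change 0.51, limma adjusted p = 0.720), with overlap. Interferon response genes were above zero in 1 of 24 (median -0.23), neutrophil markers in 1 of 18 (median -0.53) and red pulp macrophage markers in 6 of 22 (median -0.14). Marco, a scavenger receptor of marginal zone macrophages, had 37.9, 38.6 and 38.1 FPKM in HS_conFMT and 45.5, 57.5 and 64.9 FPKM in HS (log2 change -0.52, limma adjusted p = 0.737). Isg15, an interferon-induced ubiquitin-like protein, had 49.1, 34.4 and 70.4 FPKM in HS_conFMT and 78.6, 68.9 and 172 FPKM in HS. With 1 library left out the interferon median ran from -0.43 to 0.05 and the T cell median from -0.01 to 0.27, so the sign of both turned on a single library. The neutrophil median was -0.34 without HS 1, -0.75 without HS_conFMT 1 and -0.86 without HS 2. Erythroid markers were above zero in 2 of 33 (median -0.42), and the median was 0.03 without HS_conFMT 2.

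**Figure D4:**
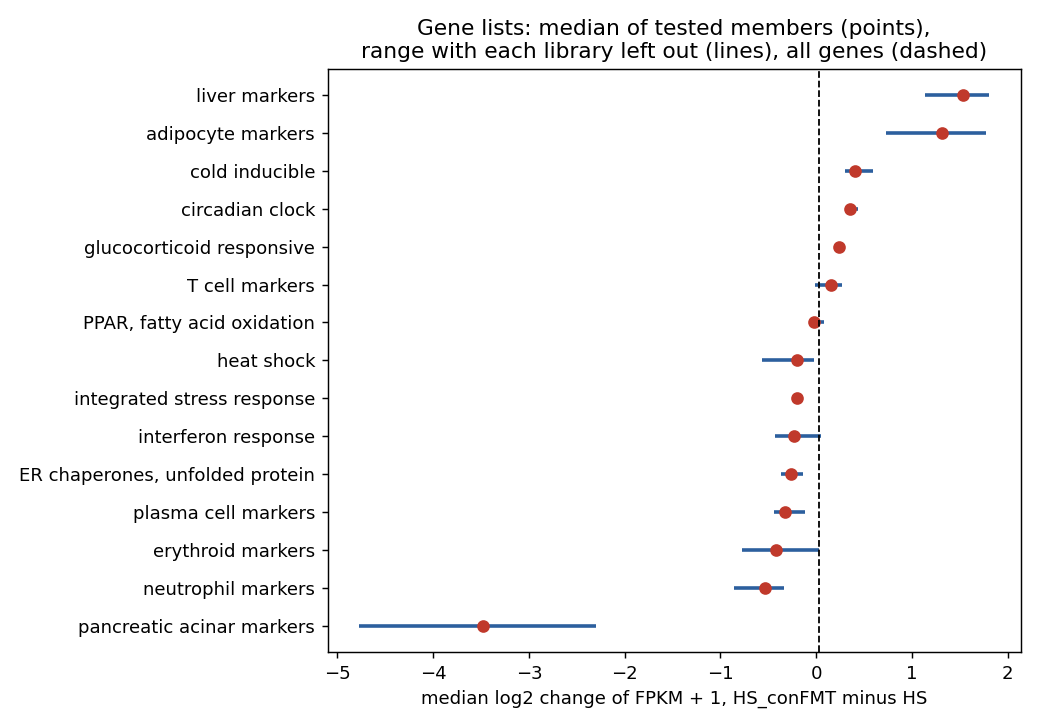
Median log2 change of FPKM + 1 in HS_conFMT minus HS over the tested members of 15 gene lists (points), the range when each of the 6 libraries is left out in turn (lines), and the median of all genes (dashed, 0.03). The clock list (0.36) and the ER list (-0.27) keep their sides throughout, whereas the lines of the erythroid, interferon, T cell and PPAR lists reach or cross zero.

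Transcripts of other organs differed between libraries and are given as measured. Adipocyte markers were above zero in all 11 tested, with 0 called, a median of 1.31, and 7 higher at an unadjusted p under 0.05 (63.6%, beside 4.51% of all genes). The median was 0.73 without HS_conFMT 2 and 1.77 without HS_conFMT 3. Adipoq, the adipocyte hormone adiponectin, had 10.8, 17.8 and 1.81 FPKM in HS_conFMT and 0.83, 4.18 and 0.95 FPKM in HS, with overlap. Pancreatic acinar markers, secreted digestive enzymes with no role in spleen, were below zero in 27 of 29, with 0 called and a median of -3.48 that ran from -4.77 to -2.30 with 1 library left out. Their summed FPKM was 102 to 4642 in HS_conFMT and 2847 to 24912 in HS. Reg3b, an antibacterial lectin induced in injured acinar tissue, was listed at 0 in all 3 HS_conFMT libraries, against 9.16, 1.60 and 10.4 FPKM in HS. Its relative Reg3d had 0.11, 0 and 0.44 FPKM in HS_conFMT and 5.51, 1.32 and 6.67 FPKM in HS. The part of the amount of acinar RNA in these values was not tested.

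The makeup of the acinar transcripts also differed, a feature singled out after the values were seen. Amylase in the pancreas depends on insulin and falls in rodents made diabetic with STZ. In HS_conFMT libraries the ratio of Amy2a5, pancreatic amylase, to Ctrb1, chymotrypsinogen B, was 0.725, 0.669 and 0.724, against 0.0926, 0.0940 and 0.213 in HS libraries. HS_conFMT 3 and HS 3 held similar Ctrb1 levels (757 and 720 FPKM) and 548 and 153 FPKM of Amy2a5. The groups did not overlap, with a difference of 2.52 on the log2 scale. The exact permutation p was 0.1 (two-sided), the smallest that 3 against 3 libraries can give. Groups that do not overlap always give this p, so it adds no support to a ratio chosen after the values were seen. With 26 other acinar transcripts as the denominator the difference was 2.22, and with 1 library left out it ran from 2.32 to 2.92. Ratios were 0.757, 0.367 and 1.42 in HS_AOSFMT, 0.0471, 0.0479 and 0.0472 in HS_AOS, 1.09, 1.45 and 1.45 in AOS, and 1.09, 1.05 and 0.436 in control. HS_AOSFMT libraries held 0.49 to 8.24 FPKM of Ctrb1, so their ratios rest on low values.

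Within HS_conFMT the ratio varied little while the summed acinar level varied widely, with 362, 102 and 4642 FPKM. Whether the acinar RNA in libraries of 1 group came from separate pancreata was not tested. Amy2a5 (chr3:113247178-113258837, mm10, minus strand) lies among near-identical amylase copies, between which reads may have been split. Ins2, an insulin gene, did not pass the filter and had 0.44, 0 and 2.36 FPKM in HS_conFMT and 0.44, 0 and 0 FPKM in HS.

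**Figure D5:**
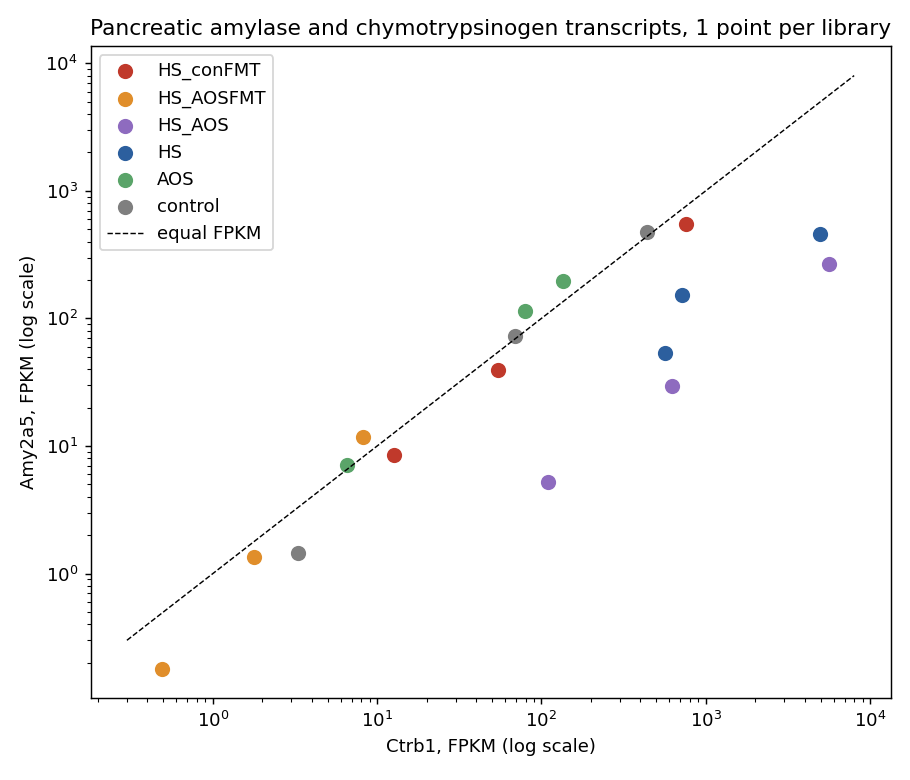
Amy2a5 against Ctrb1 in each of the 18 libraries, both in FPKM on log axes, with the line of equal FPKM dashed. The HS_conFMT libraries lie just below the line over a wide range of Ctrb1 (12.6 to 757) and the HS and HS_AOS libraries farther below it, with ratios of 0.213 or less, while the AOS libraries and control 1 and 2 lie above it and control 3 (0.436) below it.

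Against spleens that had received a transplant from AOS-treated donors, HS_conFMT differed in 759 genes (5.85% of those tested), 135 of them higher (1.04%) and 624 lower (4.81%). This comparison shares no HS library with HS_conFMT against HS, but it uses the same HS_conFMT libraries. Genes picked by small p against HS carry the same HS_conFMT values into it. Their calls here are therefore no independent support. Stat4, the transcription factor of interleukin 12 signalling, averaged 17.7 ± 2.66 FPKM in HS_conFMT, against 55.9 ± 8.17 FPKM in HS_AOSFMT (SD, n = 3 each, log2 change -1.61, limma adjusted p = 1.4e-05). Arg2, the mitochondrial arginase, averaged 2.13 ± 0.323 FPKM in HS_conFMT, against 12.1 ± 1.41 FPKM in HS_AOSFMT (log2 change -2.06). HS libraries averaged 17.98 FPKM for Stat4 and 3.74 FPKM for Arg2, and neither was called between HS_conFMT and HS (log2 changes -0.03 and -0.59). Crem, the cyclic AMP response modulator, Il1b, the inflammatory cytokine, and Mt2, a metallothionein, had log2 changes of -1.66, -1.36 and -1.45, all called. Also called lower were Hspb1, Lilrb4a and Zfp984, with log2 changes of -1.93, -1.61 and -1.43. The Lilrb4a call was lost without any 1 of the 6 libraries other than HS_conFMT 2 (limma adjusted p up to 0.173), and the Zfp984 call without HS_conFMT 2, HS_conFMT 3, HS_AOSFMT 1 or HS_AOSFMT 3 (up to 0.102).

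Higher in HS_conFMT than in HS_AOSFMT were Dbp (log2 change 0.99, limma adjusted p = 0.0134), Rbm3 (0.96) and Id4, an inhibitor of helix-loop-helix factors (1.10). Also called higher were Gdpd3 (4.79), Mup19 (2.38), Irgc1 (1.19), Rpl37rt (0.99) and Sspn (0.96). Each of these 5 calls and that of Dbp was lost without at least 1 library, with limma adjusted p up to 0.0642 for Dbp, 0.0737 for Gdpd3, 0.107 for Mup19, 0.0839 for Irgc1, 0.0855 for Rpl37rt and 0.0593 for Sspn. Dbp and Sspn lost theirs without HS_AOSFMT 2, Gdpd3 without HS_conFMT 3 or any 1 HS_AOSFMT library, and Mup19 without HS_conFMT 3, HS_AOSFMT 2 or HS_AOSFMT 3. Irgc1 lost its call without any 1 library other than HS_conFMT 2, and Rpl37rt without any 1 other than HS_conFMT 2 and HS_AOSFMT 1. The clock list had 3 genes called higher, Dbp, Tef and Hlf, and 2 called lower, Nfil3 and Bhlhe40, of 18 tested, beside 1.04% of all genes called higher and 4.81% called lower. Nr1d1 did not pass the test here, with 9.50 ± 1.06 FPKM in HS_conFMT and 7.77 ± 1.70 FPKM in HS_AOSFMT (log2 change 0.27, 95% interval -0.12 to 0.66). The ER list had 13 genes called lower and 0 higher of 27 tested, beside the same 4.81% and 1.04% of all genes. Canx averaged 68.7 ± 6.65 FPKM in HS_conFMT, against 101 ± 4.73 FPKM in HS_AOSFMT (log2 change -0.55, limma adjusted p = 0.00231). Of 17 glucocorticoid-responsive genes 4 were called lower, beside 4.81% of all genes. Fkbp5 averaged 12.5 ± 2.16 FPKM in HS_conFMT, against 27.0 ± 4.86 FPKM in HS_AOSFMT (log2 change -1.05, limma adjusted p = 0.000347). With 1 library left out, between 199 (without HS_conFMT 1) and 1201 genes (without HS_conFMT 2) were called, and between 236 and 319 without HS_conFMT 3 or any 1 HS_AOSFMT library. Haemoglobin transcripts made up 14.7% to 35.5% of HS_conFMT and 12.9% to 17.6% of HS_AOSFMT libraries. The calls were 285 higher and 535 lower after TMM scaling, and 224 higher and 253 lower with haemoglobin and acinar genes left out of the totals.

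Against untreated control spleens, 5 genes were called in HS_conFMT (0.0386% of those tested), 3 higher (0.0231%) and 2 lower (0.0154%). The HS_conFMT libraries are the same as those set against HS. Control 1 stood apart within its group. Neutrophil markers summed to 16273 FPKM in control 1, against 4457 and 889 FPKM in control 2 and 3. On the second principal component control 1 lay at -28.9, against -8.79 and -5.43. Nr1d1 rose to 9.50 ± 1.06 FPKM in HS_conFMT, against 1.91 ± 0.269 FPKM in control (SD, n = 3 each, log2 change 1.85, limma adjusted p = 0.000238), a call that held with each library left out. Dbp rose by 1.39 on the log2 scale (limma adjusted p = 0.0246), a call lost without HS_conFMT 2, HS_conFMT 3 or control 1. Ddit4 rose by 1.26 (limma adjusted p = 0.0387), a call lost without the same libraries. Kap, an androgen-regulated kidney protein, fell to 0.16 ± 0.277 FPKM in HS_conFMT, against 18.1 ± 4.17 FPKM in control, and Tnp1, a sperm nuclear protein, was listed at 0 in all HS_conFMT libraries. The Tnp1 call was lost without any 1 of the HS_conFMT libraries or control 1. The list of sperm genes it belongs to had summed levels of 26.2 to 31.3 FPKM in HS_conFMT and 45.2 to 335 FPKM in control, the highest in control 2. Per1, Pdk4, a kinase that restrains glucose oxidation, Fanca and the sperm genes Prm1 and Prm2 missed the threshold (limma adjusted p from 0.0568 to 0.0941). Without control 3 the count was 110.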

How the data were processed

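Spleen RNA was sequenced in 18 libraries, 3 in each of 6 groups. The authors deposited 1 table of expression values per gene, which from the values are FPKM: column totals varied by 6.14% (coefficient of variation) and length-weighted totals by 1.29%, with 97.1% of symbols matched to mm10 gene lengths. Per the submitters' processing notes, Bowtie 0.12.2 and mm10 were used; no source used here gives the counting tool or annotation. Depth is unknown, since FPKM keep no total. Within groups Spearman correlations were 0.950 to 0.989, and 0 pairs of libraries were identical.

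Genes that reached 1 FPKM in 3 or more libraries entered limma 3.58.1 (R 4.3.3) on log2(FPKM + 1), with 1 mean per group, empirical Bayes with trend and robust settings and 12 residual degrees of freedom (prior 3.38). The table holds 418 entries at 0 throughout, 26 symbols turned into dates and 3 symbols on 2 lines. Genes named were the 15 of smallest p per direction where fewer than 5 were called, otherwise up to 8 called genes per direction, and up to 4 members of smallest p plus defining members of each list; others were chosen after their values were seen. The comparison and the gene lists were chosen with earlier results of these data known. For any gene picked by small p, a lack of overlap in the same comparison is no further support. Alternatives were another pseudocount, other filters, TMM scaling (trimmed mean of M-values, coded from its definition), totals without haemoglobin and acinar genes, the compared groups alone, a replicate block, plain empirical Bayes and each library left out.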

Additional observations from a re-analysis of the deposited data

Results flagged for a closer look

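The change against HS differed between the transplants in 759 genes, tested directly as HS_conFMT against HS_AOSFMT with limma and Benjamini-Hochberg adjustment over all genes, since the HS libraries cancel in the difference of the changes. Among the genes named for HS_conFMT against HS, 8 were called higher in HS_conFMT than in HS_AOSFMT, beside 1.04% of all genes. Their log2 changes were 0.99 for Dbp, 0.72 for Sh2d6, 0.42 for Hlf, 0.49 for Tef, 0.72 for Gdf10, 0.61 for Tctn1, 2.38 for Mup19 and 0.50 for Nipsnap2, with limma adjusted p from 0.00217 to 0.0475. Called lower in HS_conFMT were Gaa (-0.28), Swt1 (-0.64), Cars (-0.32), Plin2 (-0.55), Canx (-0.55), Chid1 (-0.57), Creb3l1 (-0.74) and Timm10 (-0.64), with limma adjusted p from 0.000249 to 0.0498. Over all genes, 4.81% were called lower. The named genes were picked by small p against HS with the same HS_conFMT libraries, so these calls are no independent support.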

How the results depend on the processing

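The 1 call in HS_conFMT against HS became 2 with no filter on low values (Sh2d6 and Dbp), 4 without trend or robust settings (Dbp, Sh2d6, Hlf and Nr1d1), and 0 in the compared groups alone (704 genes at an unadjusted p under 0.05), under the replicate block (949) and with any 1 library left out (0 to 0 calls, 516 to 1388 genes). Deviations from the group mean correlated at 0.142, 0.365 and -0.00237 between same-numbered HS_conFMT and HS libraries. Between differently numbered ones they correlated at -0.373 to 0.3. With 3 libraries per group these values cannot tell whether the numbers pair libraries, and the block is no evidence of pairing. The 759 calls against HS_AOSFMT became 477 without haemoglobin and acinar genes in the totals, 176 in the compared groups alone, 909 under the replicate block, 820 with TMM, and 199 to 1201 with 1 library left out. The 5 calls against control became 16 with no filter, 8 with TMM, 10 without haemoglobin and acinar genes, 2 in the compared groups alone, 9 under the replicate block and 2 to 110 with 1 library left out. For HS against control the 2 calls became 1 with a pseudocount of 0.1, 8 with no filter, 0 in the compared groups alone and 3 to 20 with 1 library left out. The cause of these shifts was not tested. Over single named genes, no log2 change reversed its sign. Of these gene results, 838 kept their side of the threshold, 62 lost a call and 37 gained one. List medians are not in these counts, and those of the erythroid, interferon, T cell and PPAR lists changed sign under some alternatives. Setting aside HS 1 and HS_conFMT 2 together, and the alternatives for HS against control, were chosen after seeing the data. Depth is unknown, so low genes carry an unmeasured counting error.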

Other observations

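Beta-globin transcripts differed in kind between libraries, a feature chosen after the values were seen. The ratio of Hbb-bs to Hbb-b1 was 0.0780, 0.0304 and 0.000712 in HS_conFMT, against 0.645, 0.884 and 0.924 in HS. It was 0.00851, 0.760 and 0.171 in HS_AOSFMT, 0.302, 0.292 and 0.859 in HS_AOS, 0.0101, 0.00102 and 0.266 in AOS, and 0.0212, 0.353 and 0.915 in control. Hbb-bs alone had 5938, 844 and 44.2 FPKM in HS_conFMT and 25894, 32959 and 31326 FPKM in HS (log2 change -5.62, limma adjusted p = 0.740). Mouse beta-globin haplotypes carry different adult genes, ICR mice are outbred, and these genes are near-identical copies between which reads may have been split. The part of haplotype in the values was not tested.

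Gdpd3, a lysophospholipase D gene, ranged widely within groups. It had 5.61, 105 and 76.0 FPKM in HS_conFMT, 0.47, 0.39 and 0.24 FPKM in HS_AOSFMT, 24.7, 2.10 and 50.5 FPKM in HS, and 0.43, 0.66 and 0.38 FPKM in control. The HS_conFMT and HS libraries overlapped.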
